A study of Mus musculus with 18 samples.

Results

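The 10 genes described here carry out class I antigen presentation. They were taken by name from the 23420 genes of an RNA-seq table of mouse skeletal muscle for their place in the pathway. They are the light chain gene B2m, the classical heavy chain genes H2-K1 and H2-D1, the peptide transporter genes Tap1 and Tap2, the loading factor gene Tapbp, the immunoproteasome subunit genes Psmb8, Psmb9 and Psmb10, and Nlrc5, which encodes a transactivator of class I genes. The muscle came from the hindlimbs of C57BL/6J female mice aged 2 months (2 m), 20 months (20 m) and 28 months (28 m), with 3 mice and 3 poly-A RNA libraries at each age. The study calls these ages young, aged and superaged, and its labels name no treatment or genetic change for any group. Each library was made from powdered whole muscle, so RNA of fibers, vessels, connective tissue and resident immune cells was measured in 1 mixture. In such bulk samples, fewer cells of a type and less RNA per cell cannot be told apart. DNA methylation was measured at the same ages by methyl-binding domain sequencing (MBD-seq) of muscle and of splenic T cells.

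Class I molecules show peptides from inside a cell to CD8 T cells. The proteasome cuts proteins into peptides, the TAP transporter moves the peptides into the endoplasmic reticulum, and tapasin (Tapbp) helps to load them on a heavy chain paired with beta-2-microglobulin. Interferon signalling raises many genes of the pathway and exchanges constitutive proteasome subunits for the immunoproteasome subunits, and Nlrc5 acts on class I promoters with RFX, CREB/ATF and NF-Y factors bound there. Resting muscle fibers are known for low surface class I, and class I on fibers is a feature of inflammatory muscle disease.

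The genes lie on 3 chromosomes (GRCm38, RefSeq annotation). There were 7 on chromosome 17 in or near the major histocompatibility complex, Psmb10 and Nlrc5 on chromosome 8, and B2m on chromosome 2. Psmb9, Tap1, Psmb8 and Tap2 formed 1 cluster of 34.2 kb, in which Psmb9 (chr17:34182099-34187330, minus strand) and Tap1 (chr17:34187556-34197225, plus strand) start 226 bases apart and are transcribed away from each other. The starts of H2-K1 and H2-D1 lay 1263 kb apart. B2m occupies chr2:122147687-122153082 on the plus strand with 4 exons, Psmb8 chr17:34198195-34201454 on the plus strand, and Nlrc5 chr8:94472763-94527272 on the plus strand.

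Promoter windows of RefSeq (GRCm38.p6) were matched for 8 of the 10 genes, with 2 windows for H2-K1, of which the one at the start of its annotated transcript is shown. Tap2 and Nlrc5 had no match. The 250 bases before the start of 5 genes are given here because they show what the classical chains share and what the transporter and immunoproteasome genes do not share with them. Capitals mark matches, on either strand, to GAAANNGAA (an interferon regulatory factor motif), TTCNNNGAA (STAT), GGGANTTCC (NF-kB), CCAAT (NF-Y, read as ATTGG on the other strand) and TGACG (the core of a CREB/ATF site, read as CGTCA on the other strand).
B2m, chr2:122147437-122147686, plus strand: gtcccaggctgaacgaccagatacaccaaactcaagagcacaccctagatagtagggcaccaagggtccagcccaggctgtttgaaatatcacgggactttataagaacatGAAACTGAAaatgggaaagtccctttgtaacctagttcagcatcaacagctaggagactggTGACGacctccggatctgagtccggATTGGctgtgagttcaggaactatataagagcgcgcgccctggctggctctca
H2-K1, chr17:34000334-34000583, minus strand: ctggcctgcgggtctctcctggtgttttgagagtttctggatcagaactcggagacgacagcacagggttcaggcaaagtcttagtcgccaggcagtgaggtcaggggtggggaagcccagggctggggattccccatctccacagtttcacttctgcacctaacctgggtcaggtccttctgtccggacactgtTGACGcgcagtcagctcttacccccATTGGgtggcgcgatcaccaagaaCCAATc
H2-D1, chr17:35262844-35263093, plus strand: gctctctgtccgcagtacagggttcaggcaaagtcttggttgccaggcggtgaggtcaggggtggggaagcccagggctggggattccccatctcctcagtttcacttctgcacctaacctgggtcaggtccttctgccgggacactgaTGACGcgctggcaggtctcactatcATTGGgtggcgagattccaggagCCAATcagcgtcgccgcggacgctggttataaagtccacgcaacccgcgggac
Tap1, chr17:34187306-34187555, plus strand: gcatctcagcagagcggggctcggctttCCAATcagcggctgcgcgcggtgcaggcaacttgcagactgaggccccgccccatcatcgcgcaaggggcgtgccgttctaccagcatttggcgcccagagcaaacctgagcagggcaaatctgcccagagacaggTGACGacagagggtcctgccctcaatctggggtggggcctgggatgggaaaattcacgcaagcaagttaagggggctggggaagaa
Psmb8, chr17:34197945-34198194, plus strand: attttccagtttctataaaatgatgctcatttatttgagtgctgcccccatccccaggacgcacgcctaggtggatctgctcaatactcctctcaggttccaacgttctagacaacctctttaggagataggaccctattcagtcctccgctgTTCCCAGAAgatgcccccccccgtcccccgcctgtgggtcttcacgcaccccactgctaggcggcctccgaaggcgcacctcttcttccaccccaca
In B2m, H2-K1 and H2-D1 a TGACG was followed after 20 bases by ATTGG. This spacing was noticed in the matches and then counted: it occurred in 31 of 32851 promoter windows (0.0944%), which belong to 27 genes and include a further class I gene, H2-M3. It is the arrangement of the X2 and Y boxes known from class I promoters. The windows of the other 5 genes matched did not hold it. The upstream sequences of H2-K1 and H2-D1 were identical at 177 of 204 aligned positions (86.8%). Single motifs were common: NF-Y letters were in 6 of the 8 genes against 37.4% of all windows, which run from 250 bases before to 50 after a start, and CREB/ATF letters in 5 of 8 against 20.8%. The windows of Psmb9 and Tap1 share 275 bases and the same NF-Y and CREB/ATF matches, so each of these sites is counted for both genes. The interferon regulatory factor letters were in B2m alone among the 8 (8.56% of all windows), at bases -139 to -131 from the start. The STAT letters were in Psmb8 alone among the 8 (8.3% of all windows), at -97 to -89, and NF-kB letters were in none of the 8 (1.68% of all windows). Other forms of the letters, added after the windows were read, gave other matches: GAANNGAAA, a further form of the interferon regulatory factor motif, and GGGNNTTCC, a looser NF-kB form, searched on both strands, were each in H2-K1 and H2-D1 among the 8 (7.52% and 5.82% of all windows). These matches are not in capitals. A match is a description of letters and not a bound site, and the lack of one says only that those letters are not in the window.

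The RNA libraries held 20203833 to 71115244 reads in genes. Values are read counts that the authors divided by a size factor for each library, called normalized counts here, and 1 read was worth 0.5448 to 2.229 of them. The tissue carried its markers: 8 skeletal muscle genes summed to 4665503 to 5981164 normalized counts in every library. The first 2-m library stood apart, with a sum of marrow myeloid and red cell markers of 6531 against 178 to 445 in the other 8 libraries and of pan-leukocyte markers of 1754 against 763 to 1100. Fibroblast markers summed to 53134 to 108448 at 2 m and to 22805 to 31156 at 20 m and 28 m. Their 7 genes differed in size of change. Against 2 m, log2 differences ran from -3.50 to -0.16 at 20 m and from -3.34 to -0.12 at 28 m, with the collagen gene Col1a1 lowest at both ages. T and NK cell markers were low, with 12 of 14 genes present, none with a mean of 10 or more, and a sum of 12.5 to 44.2 in each library. Of the T-cell genes, Cd3e lay between 1.76 and 13.8 and Cd8a between 0 and 3.74.

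Each age group had 3 libraries, and changes were tested with limma on log2(normalized count + 1) across the 13178 genes with a mean of at least 10, a set that includes all 10 genes here. A call means a Benjamini-Hochberg adjusted p under 0.05 in that fit, and log2 differences are on that scale. Shares of all genes are given for limma alone, so counts by edgeR or DESeq2 have no such share beside them.

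Few of the 10 genes passed the test between ages. Against 2 m, Psmb8 fell to 0.582 of its level at 20 m, B2m and Nlrc5 rose at 28 m, by 1.32-fold and 2.21-fold, and the other genes of the 10 did not pass in either comparison. At 20 m, 1 of the 10 genes was called lower, against 7.13% of all genes tested, and none was called higher. At an unadjusted limma p under 0.05, 4 were lower and 0 higher, against 14.8% and 16.8% of all genes tested. edgeR and DESeq2 each also called 1 gene lower and 0 higher. At 28 m, 2 of the 10 were called higher than at 2 m, against 7.53% of all genes tested, and 0 lower. An unadjusted limma p under 0.05 gave 2 higher and 0 lower, against 14.6% and 13.5% of all genes tested. edgeR and DESeq2 each also called 2 higher and 0 lower. The study's own rule asked for more than 2-fold with an unadjusted p under 0.05, and Nlrc5 was the 1 gene of the 10 to pass it at 28 m against 2 m, where 2.66% of all genes passed as higher. These calls depended on scaling: with every library brought to 1 common sum, the limma adjusted p was 0.129 for Psmb8, 0.325 for B2m and 0.135 for Nlrc5.

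**Figure D1:**
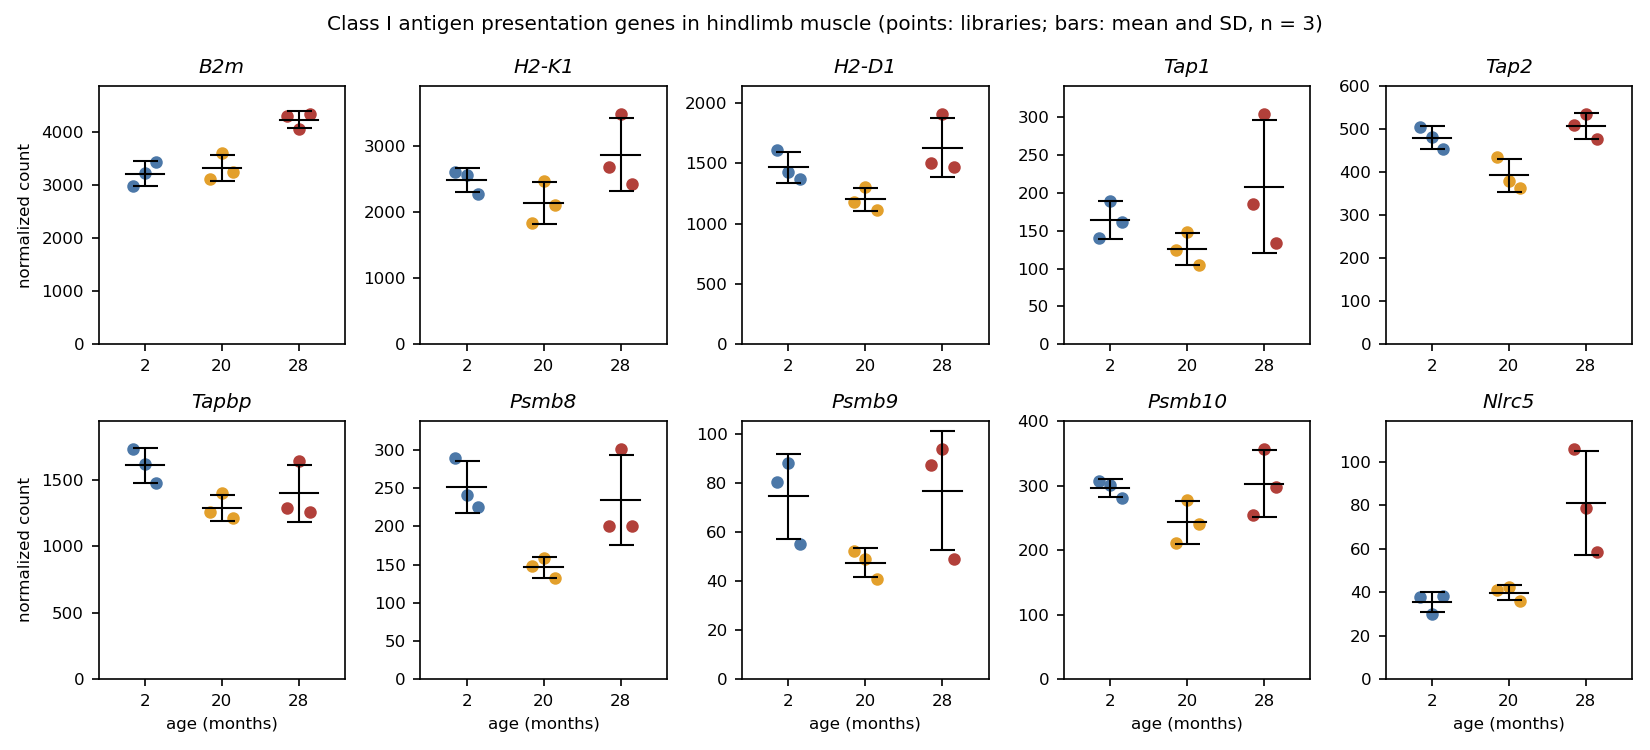
Normalized counts of the 10 genes in each of the 9 libraries, 1 panel a gene on its own linear axis from 0, with points for libraries and bars for the mean and SD of each age (n = 3). The 28-m points of B2m (4052 to 4348) and Nlrc5 (58.5 to 106) lie above every 2-m and 20-m point, and the 20-m points of Psmb8 (132 to 159) lie below every 2-m and 28-m point.

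B2m encodes beta-2-microglobulin, the light chain needed by every class I heavy chain at the cell surface. Its normalized counts were 2982, 3235 and 3442 at 2 m, 3120, 3599 and 3255 at 20 m, and 4298, 4052 and 4348 at 28 m. All 3 libraries of 28 m lay above the 6 younger ones, and the 2-m and 20-m libraries overlapped. The mean was 3220 ± 230 (SD, n = 3) at 2 m and 4233 ± 159 (SD, n = 3) at 28 m, a log2 difference of 0.40 (SE 0.08, limma adjusted p = 0.00746). At 20 m the mean was 3324 ± 247 (SD, n = 3) and the log2 difference from 2 m was 0.05 (limma adjusted p = 0.741), which turned to -0.01 without the first 2-m library or the second 20-m library. B2m was also the 1 gene of the 10 called when the mean of 20 m and 28 m was set against 2 m (log2 0.22, limma adjusted p = 0.0444), where 11.2% of all genes were called higher. That call was lost in 7 of 9 fits that each left out 1 library (limma adjusted p = 0.0368 to 0.2 over the 9), with no filter on low values (0.0568), with quantile normalization (0.113), with 1 common sum (0.534), without the 3 libraries numbered 3 (0.0818) and by edgeR (0.056). The call of B2m at 28 m alone was kept whichever library was left out (limma adjusted p = 0.00798 to 0.0375), the first 2-m library included.

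The heavy chain genes H2-K1 and H2-D1 encode the classical K and D chains that hold the peptide. H2-K1 was at 2601, 2560 and 2269 normalized counts at 2 m, 1825, 2467 and 2102 at 20 m, and 2678, 3482 and 2423 at 28 m. H2-D1 was at 1611, 1424 and 1368 at 2 m, 1182, 1304 and 1113 at 20 m, and 1505, 1911 and 1468 at 28 m. For both genes the second 28-m library was the highest of the 9. The 3 libraries of 20 m lay below all 2-m and 28-m libraries for H2-D1, and overlapped both ages for H2-K1. Neither gene was called: the log2 differences at 20 m against 2 m were -0.22 for H2-K1 (limma adjusted p = 0.281) and -0.29 for H2-D1 (limma adjusted p = 0.1), and those at 28 m against 2 m were 0.19 (limma adjusted p = 0.382) and 0.14 (limma adjusted p = 0.451). Both share stretches of sequence with other class I genes: of 50-base windows in their exons, 7.89% in H2-K1 and 19.3% in H2-D1 recurred on chromosome 17. Reads placed at several sites (20.5% to 22.3% of the reads counted) went to no gene, so the levels of both genes are uncertain by the reads of those windows.

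Of the transport and loading genes, Tap1 and Tap2 encode the partner subunits of the peptide transporter, and Tapbp encodes tapasin, which bridges the transporter and the heavy chain. Tap2 was at 506, 481 and 454 normalized counts at 2 m, 435, 380 and 363 at 20 m, and 509, 536 and 476 at 28 m. Tapbp was at 1739, 1625 and 1477 at 2 m, 1263, 1402 and 1212 at 20 m, and 1294, 1646 and 1259 at 28 m. Tap1, which spread most within 28 m, was at 140, 190 and 162 at 2 m, 125, 148 and 105 at 20 m, and 186, 305 and 134 at 28 m. The 20-m libraries of Tap2 and Tapbp lay below all 2-m libraries without passing the test (log2 -0.29 and -0.32, limma adjusted p = 0.1 and 0.0711). Tapbp did pass under quantile normalization (limma adjusted p = 0.0491), with only the compared libraries (0.0448) and without 28-m library 2 (0.0319), and without that library it also passed at 28 m against 2 m (0.0468). Tap1 overlapped between all ages, with log2 differences of -0.38 at 20 m and 0.27 at 28 m against 2 m (limma adjusted p = 0.359 and 0.551), the latter -0.04 without the second 28-m library. At 28 m, the log2 difference from 2 m was 0.08 for Tap2 and -0.21 for Tapbp (limma adjusted p = 0.71 and 0.243).

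The immunoproteasome genes Psmb8, Psmb9 and Psmb10 encode the catalytic subunits that take the places of Psmb5, Psmb6 and Psmb7 of the constitutive proteasome. Psmb8 was at 290, 241 and 225 normalized counts at 2 m, 148, 159 and 132 at 20 m, and 201, 302 and 200 at 28 m. The 3 libraries of 20 m lay below the other 6, while the 2-m and 28-m libraries overlapped. Its mean was 252 ± 33.6 (SD, n = 3) at 2 m and 146 ± 13.4 (SD, n = 3) at 20 m, a log2 difference of -0.78 (SE 0.19, 95% interval -1.19 to -0.37, limma adjusted p = 0.0152) and a fold of 0.582. At 28 m its mean was 235 ± 58.8 (SD, n = 3), with a log2 difference from 2 m of -0.12 (95% interval -0.53 to 0.29, limma adjusted p = 0.718). The call at 20 m depended on single libraries: without the first 2-m library, the one with raised marrow markers, the log2 difference was -0.68 (limma adjusted p = 0.0614), and without the 20-m library numbered 3 the limma adjusted p was 0.0511.

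Psmb9 and Psmb10 also had their lowest means at 20 m, without a call. Psmb9 was at 80.2, 88.1 and 54.9 normalized counts at 2 m, 52.3, 48.9 and 40.9 at 20 m, and 87.3, 93.9 and 49.1 at 28 m, and its libraries held as few as 26 reads. Psmb10 was at 308, 301 and 281 at 2 m, 211, 278 and 241 at 20 m, and 254, 358 and 298 at 28 m. For both, all 20-m libraries lay below all 2-m libraries, with log2 differences of -0.62 (limma adjusted p = 0.191) and -0.29 (limma adjusted p = 0.232). Against 2 m, the 28-m log2 differences were 0.02 for each gene (limma adjusted p = 0.978 and 0.951), and without the second 28-m library they were -0.15 and -0.11.

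The ratio of an immunoproteasome subunit to its constitutive counterpart cancels the size factor of a library. The ratio of Psmb8 to Psmb5 was 0.087 at 2 m, 0.056 at 20 m and 0.083 at 28 m as geometric means, so 20 m was at 0.643 of 2 m (two-sided exact permutation p = 0.1, the smallest that 3 against 3 libraries allow). The ratio of Psmb9 to Psmb6 went from 0.0188 to 0.0143 at 20 m (two-sided exact permutation p = 0.2) and that of Psmb10 to Psmb7 from 0.0386 to 0.0337 (two-sided exact permutation p = 0.1). All 3 ratios were lower at 20 m than at 2 m and higher at 28 m than at 20 m, but after adjustment over the 28 ratio comparisons the smallest p was 0.35. The constitutive genes themselves had median log2 differences of -0.14 at 20 m and -0.12 at 28 m against 2 m, with none of the 3 called by limma, edgeR or DESeq2. At 20 m, 1 of the 3 was lower at an unadjusted limma p under 0.05, against 14.8% of all genes. The ratio of H2-D1 to B2m was 0.456 at 2 m, 0.361 at 20 m and 0.382 at 28 m, and that of H2-K1 to B2m was 0.769, 0.638 and 0.668. For H2-D1 to B2m, no 20-m library overlapped with 2 m (two-sided exact permutation p = 0.1), and for the other comparisons of these heavy chain ratios the exact p was 0.0952 or above.

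Nlrc5 encodes the NOD-like receptor that acts as the class I transactivator. Its normalized counts were 37.9, 30 and 38.3 at 2 m, 41.1, 42.2 and 36 at 20 m, and 106, 78.7 and 58.5 at 28 m, which rest on 17 to 66 reads. The 28-m libraries lay above the 6 younger ones but spread widely among themselves. The mean was 35.4 ± 4.69 (SD, n = 3) at 2 m and 81.2 ± 24 (SD, n = 3) at 28 m, a log2 difference of 1.14 (SE 0.30, 95% interval 0.49 to 1.80, limma adjusted p = 0.0257). At 20 m the mean was 39.7 ± 3.32 (SD, n = 3), with a log2 difference from 2 m of 0.17 (limma adjusted p = 0.742). Leaving out 1 library at a time kept the log2 difference at 28 m between 0.93 and 1.35, while the call was lost without the first or second 2-m library (limma adjusted p = 0.0512 and 0.0651) and without the first or second 28-m library (limma adjusted p = 0.122 and 0.0541).

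**Figure D2:**
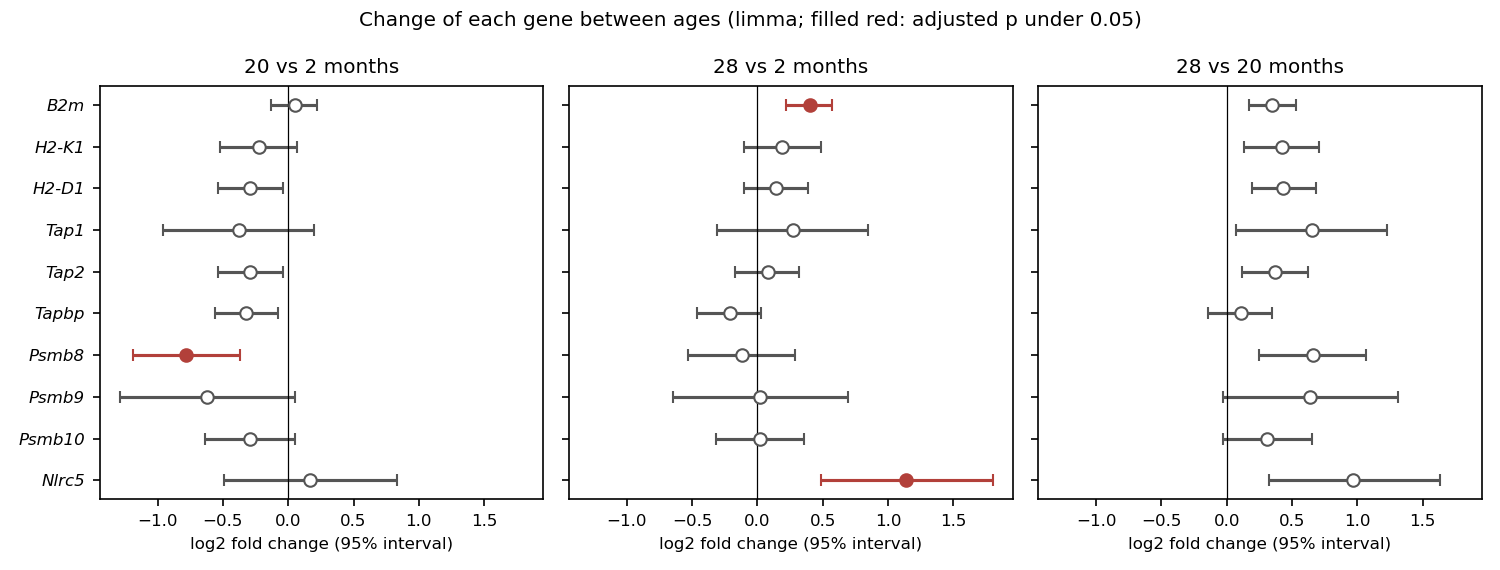
Log2 differences of the 10 genes from the limma fit for 20 m against 2 m, 28 m against 2 m and 28 m against 20 m, with points for estimates, bars for 95% intervals and filled points for an adjusted p under 0.05. Filled points are Psmb8 at -0.78 in the first comparison and B2m at 0.40 and Nlrc5 at 1.14 in the second.

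Between 20 m and 28 m, all 10 genes had a log2 difference above 0, between 0.11 for Tapbp and 0.97 for Nlrc5, while 49.3% of all genes tested were above 0. Without the second 28-m library Tapbp was at -0.02 and the other 9 stayed above 0. None was called by limma or edgeR. DESeq2 on the same reads called 2, B2m (adjusted p = 0.0138) and H2-D1 (adjusted p = 0.035). The share of all genes that DESeq2 called in this comparison is not given here. At an unadjusted limma p under 0.05, 7 of the 10 passed (B2m, H2-K1, H2-D1, Tap1, Tap2, Psmb8 and Nlrc5), against 5.15% of all genes tested in the higher direction. Few genes of any kind were called in this comparison, with 28 called higher, or 0.212% of those tested. The smallest limma adjusted p was that of B2m, at 0.111, and those of H2-D1 and Psmb8 were 0.152 and 0.198.

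Between 2 m and 20 m, 8 of the 10 genes had a log2 difference below 0, against 52.1% of all genes tested, with B2m and Nlrc5 above 0 (B2m was at -0.04 under quantile normalization). The median over the 10 genes was -0.29 at 20 m against 2 m, 0.11 at 28 m against 2 m and 0.43 at 28 m against 20 m, where the medians over all genes were -0.02, -0.01 and -0.00. The comparisons of 20 m with 2 m and of 28 m with 20 m use the same 20-m libraries, so a low value at 20 m enters both. Counted by overlap of libraries, 6 of 10 genes (H2-D1, Tap2, Tapbp, Psmb8, Psmb9 and Psmb10) had every 20-m library below every 2-m library, against 17.6% of all genes tested. For 28 m above 2 m there were 2 (B2m and Nlrc5), against 15.3%. For 28 m above 20 m there were 5 (B2m, H2-D1, Tap2, Psmb8 and Nlrc5), against 8.63%.

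Levels between genes were compared as normalized counts per kilobase of exon. B2m was highest, with a median over the 9 libraries of 4012 (range 3476 to 5068), followed by H2-K1 at 1499 (1109 to 2115), H2-D1 at 820 (641 to 1101) and Tapbp at 510 (441 to 633). The ranges of these 4 did not overlap. Psmb10 at 221 (166 to 282), Tap2 at 191 (146 to 215) and Psmb8 at 164 (108 to 247) overlapped with each other, as did Psmb9 at 68.1 (50.7 to 117) and Tap1 at 50.3 (35.6 to 103), and the lowest library of Psmb8 lay below the highest of Psmb9. Nlrc5 was lowest, at 5.92 (4.31 to 15.3), with no overlap with Tap1.

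Some macrophage and class II markers also fell at 20 m. Of 11 macrophage marker genes, 3 fell at 20 m against 2 m by limma, where 7.13% of all genes were called lower: the complement genes C1qa (log2 -0.59) and C1qb (log2 -0.61), and the lysozyme gene Lyz2 (log2 -0.54). The sum of the 11 genes was 3873 to 5490 normalized counts at 2 m, 3444 to 3684 at 20 m and 3670 to 5171 at 28 m. Of 6 class II genes, the invariant chain gene Cd74 (log2 -0.40) and H2-Ab1 (log2 -0.51) fell at 20 m, and their sum was 3452 to 3948 at 2 m, 2666 to 2881 at 20 m and 3070 to 4040 at 28 m. Without 2-m library 1, the one with raised marrow and leukocyte markers, none of the 3 macrophage genes was called (limma adjusted p = 0.102 for C1qa, 0.0502 for C1qb and 0.0888 for Lyz2), nor was H2-Ab1 (0.0886). The call of Cd74 was kept whichever single library was left out, but not with every library brought to 1 common sum (limma adjusted p = 0.419) or without the 3 libraries numbered 3 (0.114). The 3 macrophage calls were each also lost without 2-m library 3 and without each of 2 of the 20-m libraries, and that of H2-Ab1 without 20-m library 2 (0.0717) or 3 (0.0873). With 1 common sum these 4 calls were lost too. The median log2 differences at 20 m against 2 m, 28 m against 2 m and 28 m against 20 m were -0.44, -0.09 and 0.43 for the macrophage list and -0.42, -0.05 and 0.41 for the class II list. Between 20 m and 28 m, limma and edgeR called 0 genes of either list and DESeq2 called 0 and 1. In that comparison 4 of each list were higher at an unadjusted limma p under 0.05, against 5.15% of all genes. Endothelial markers summed to 17983 to 23889 in all libraries. The part of these cells in the class I values was not tested.

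Regulator genes of the pathway (24 tested) were called in both directions at 28 m against 2 m. Rfx5, a subunit of the RFX complex on class I and class II promoters, rose at 28 m against 2 m (log2 0.63, limma adjusted p = 0.0281). Its call was lost without 2-m library 2 or 28-m library 1 or 3 (limma adjusted p = 0.0752 to 0.105). In the same comparison 4 regulators fell, where 6.24% of all genes were called lower: Ifngr2, a chain of the interferon gamma receptor (log2 -0.55), the kinase gene Jak2 (log2 -0.58), Irf2, which binds interferon response elements (log2 -0.45), and the NF-Y subunit gene Nfyb (log2 -0.41). The call of Nfyb was lost without 2-m library 3 (limma adjusted p = 0.0505) or 28-m library 3 (0.0543), and those of the other 3 were kept whichever single library was left out. With every library brought to 1 common sum the call of Rfx5 and all 4 of these were lost (limma adjusted p = 0.183 for Ifngr2, 0.15 for Jak2, 0.436 for Irf2 and 0.548 for Nfyb). Without the 3 libraries numbered 3, the calls of Irf2 (limma adjusted p = 0.0573), Nfyb (0.15) and Rfx5 (0.151) were lost.

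At 20 m against 2 m, 3 of the 24 regulators were called lower and 0 higher by limma, edgeR and DESeq2 (7.13% and 9.42% of all genes by limma). By an unadjusted limma p under 0.05, 8 were lower and 1 higher, against 14.8% and 16.8% of all genes. The 3 called lower by limma were Ifngr2 (log2 -0.34, limma adjusted p = 0.00951), the interferon-activated factor gene Stat2 (log2 -0.67, limma adjusted p = 0.0273) and Socs1, a feedback inhibitor of JAK signalling (log2 -2.25, limma adjusted p = 0.035). Socs1 was a low gene, at 15.6, 30 and 28.2 normalized counts at 2 m and 3.74, 5.06 and 3.81 at 20 m. The call of Socs1 was lost without 2-m library 3 or any 1 of the 20-m libraries (limma adjusted p = 0.0741 to 0.114), and that of Stat2 without 2-m library 2 or 3 or 20-m library 2 (0.0639 to 0.109). Rfxap, another RFX subunit gene, was called lower for the mean of 20 m and 28 m (log2 -0.39, limma adjusted p = 0.0413), a call lost without any 1 of 6 libraries: 2-m library 1 or 2, 20-m library 1, 2 or 3, or 28-m library 3 (0.0601 to 0.166). With 1 common sum, the calls of Ifngr2, Stat2, Socs1 and Rfxap were lost as well. Those of Ifngr2 (limma adjusted p = 0.0563), Stat2 (0.099) and Socs1 (0.172) at 20 m were also lost without the 3 libraries numbered 3. Ifng itself was at 0 in 8 libraries and at 1.38, or 1 read, in the second 28-m library.

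Interferon-stimulated genes outside the pathway moved in both directions. At 20 m against 2 m, 12 of 33 tested fell and 2 rose, where 7.13% of all genes were called lower and 9.42% higher, with a median log2 difference of -0.48. At 28 m against 2 m, 6 rose (7.53% of all genes by limma) and 0 fell by limma and edgeR, and 9 rose and 1 fell by DESeq2. With an unadjusted limma p under 0.05, 13 were higher and 1 lower (14.6% and 13.5% of all genes), and the median was 0.32. At 28 m against 20 m, 7 rose (0.212% of all genes by limma) and 0 fell by limma and edgeR. DESeq2 called 15 higher and 0 lower, and its share of all genes is not given here. With an unadjusted limma p under 0.05, 25 were higher and 0 lower (5.15% and 5.44% of all genes). Of the 33, 32 lay above 0 (49.3% of all genes), with a median of 0.88. Without 2-m library 1, which was left out after its values were seen, the limma counts at 20 m against 2 m were 13 lower and 2 higher. In that fit 4.39% of all genes were called lower and 6.41% higher. At 28 m against 2 m they were 4 higher and 1 lower (4.73% and 3.81% of all genes). At 28 m against 20 m they were 7 higher and 0 lower (0.191% and 0.168% of all genes). The sum of the list was 8601 to 9842 normalized counts at 2 m, 7330 to 7630 at 20 m and 10714 to 11524 at 28 m, with no overlap between ages.

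Single interferon-stimulated genes differed in their course. Irf7, a transcription factor of the type I response, was at 143, 159 and 159 normalized counts at 2 m, 54.2, 35.4 and 74.1 at 20 m, and 213, 134 and 138 at 28 m, and so fell at 20 m (log2 -1.53, limma adjusted p = 0.0029) and was called higher at 28 m than at 20 m (log2 1.58, limma adjusted p = 0.0273). The latter call was lost without 20-m library 1 or 2 or any 1 of the 28-m libraries (limma adjusted p = 0.0674 to 0.115) and with no filter on low values (0.0523). Isg15, a ubiquitin-like modifier, fell at 20 m (log2 -1.55, limma adjusted p = 0.0213), a call lost without 2-m library 2 or 3 or 20-m library 1 (0.054 to 0.0835) and with 1 common sum. Cxcl10, a chemokine that draws T cells, was instead at 0, 5.29 and 5.78 at 2 m, 28, 55.7 and 22.3 at 20 m, and 165, 81.5 and 125 at 28 m, with log2 differences from 2 m of 3.27 and 5.10 (limma adjusted p = 0.00705 and 0.000447). The guanylate-binding protein gene Gbp6 rose at 20 m (log2 2.16) and 28 m (log2 1.85), with limma adjusted p = 4.7e-05 and 0.000148.

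**Figure D3:**
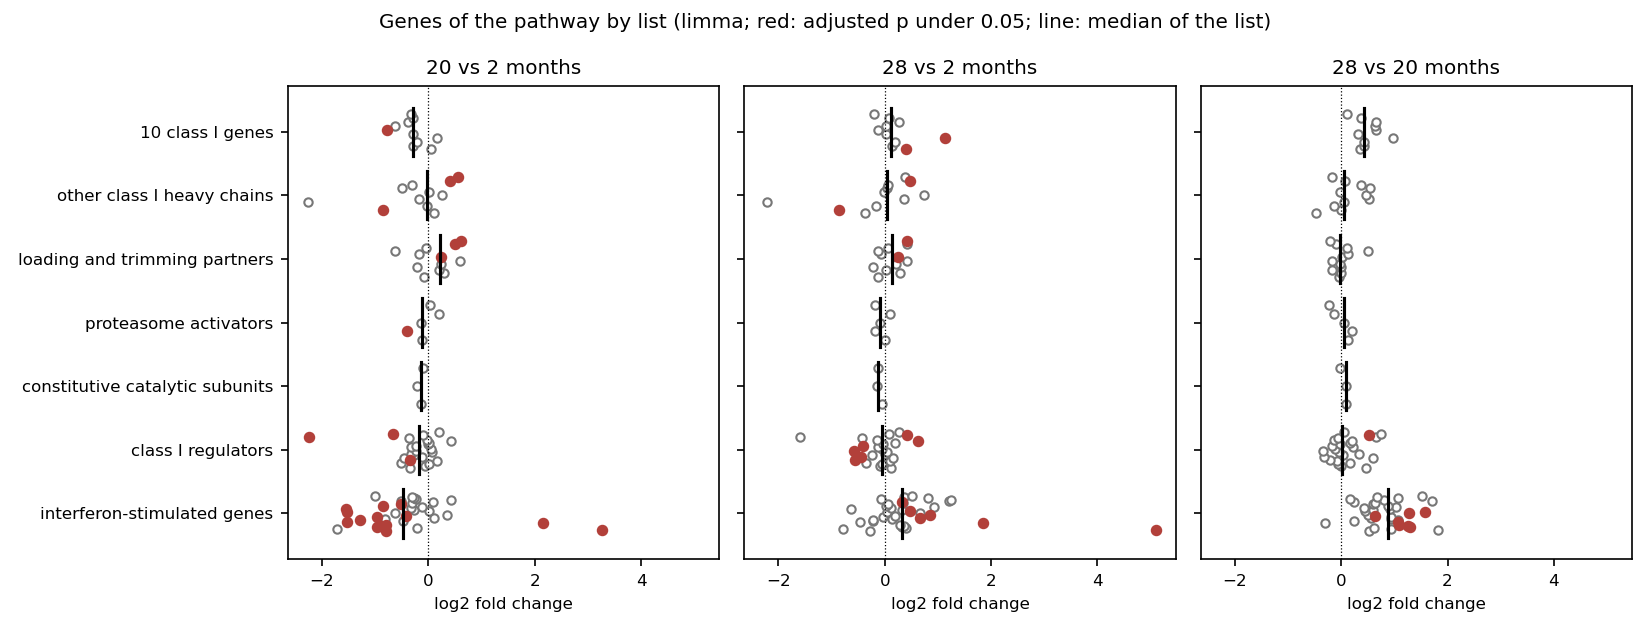
Log2 differences of the tested genes of each list for 3 comparisons of ages, with 1 point a gene, filled red where the limma adjusted p was under 0.05, and a vertical line at the list's median. The interferon-stimulated genes have medians of -0.48, 0.32 and 0.88, and the 10 class I genes -0.29, 0.11 and 0.43.

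Of 28 other heavy chain genes, 11 had a mean of at least 10 and were tested. Fcgrt, the neonatal Fc receptor that carries IgG and albumin and pairs with beta-2-microglobulin, was at 2409, 1963 and 2032 normalized counts at 2 m, 1196, 1149 and 1192 at 20 m, and 1057, 1282 and 1191 at 28 m. It fell at both ages, to 0.554 and 0.552 of 2 m (limma adjusted p = 0.000179 and 0.000176), so that the light chain and this partner moved in opposite directions at 28 m. Hfe, which regulates iron uptake, rose at 20 m (log2 0.41, limma adjusted p = 0.0353) and at 28 m (log2 0.48, limma adjusted p = 0.0198). Mr1, which presents vitamin B metabolites, rose at 20 m (log2 0.55, limma adjusted p = 0.012). So 2 of the 11 were called higher at 20 m and 1 at 28 m, against 9.42% and 7.53% of all genes, and Fcgrt was the 1 called lower at each age, against 7.13% and 6.24%. By edgeR and DESeq2, 2 of the 11 were called higher and 2 lower at 20 m, and at 28 m edgeR called 1 higher and 1 lower and DESeq2 2 higher and 1 lower. The calls of Hfe were lost at 20 m without 2-m library 1 or 20-m library 1 or 2 (limma adjusted p = 0.11 to 0.129) and, at 28 m, without 2-m library 1 or 28-m library 1 or 3 (0.0751 to 0.0786), and that of Mr1 without 20-m library 2 (0.0598). The median of the 11 genes was -0.02 at 20 m and 0.04 at 28 m against 2 m. Between 20 m and 28 m, 0 of the 11 were called by limma, edgeR or DESeq2. In that comparison 2 were higher at an unadjusted limma p under 0.05, against 5.15% of all genes.

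Of 12 partners in peptide trimming and chain folding, 3 rose at 20 m, where 9.42% of all genes were called higher, and 0 fell: Npepps, an aminopeptidase of the cytosol (log2 0.24, limma adjusted p = 0.037), Tpp2, a tripeptidyl peptidase (log2 0.51, limma adjusted p = 0.0177), and Uggt1, which checks glycoprotein folding (log2 0.62, limma adjusted p = 0.000456). Without 2-m library 1, Uggt1 alone of the 12 was called at 20 m, where 6.41% of all genes were called higher. The call of Npepps was lost without any 1 of the 2-m libraries or 20-m library 1 or 3 (limma adjusted p = 0.0541 to 0.163), and that of Tpp2 without 2-m library 1 or 20-m library 1 or 2 (0.0511 to 0.0737). Among these 12 genes at 20 m, 5 were higher and 1 lower at an unadjusted limma p under 0.05 (16.8% and 14.8% of all genes). By edgeR and by DESeq2, 4 were called higher and 0 lower. Npepps and Uggt1 were also called at 28 m (log2 0.25 and 0.41), Npepps not without any 1 of the 2-m libraries or 28-m library 1 or 3 (limma adjusted p = 0.0506 to 0.118), and the chaperone gene Canx was called higher for the mean of 20 m and 28 m (log2 0.29, limma adjusted p = 0.0269), a call lost without any 1 of 5 libraries: 2-m library 1 or 3, 20-m library 1 or 2, or 28-m library 1 (0.0581 to 0.122). Of 5 proteasome activator genes, 1 was called lower at 20 m, against 7.13% of all genes: Psme1, a subunit of the interferon-inducible PA28 cap, fell at 20 m: it was at 1159, 1177 and 1201 normalized counts at 2 m and 889, 898 and 898 at 20 m (log2 -0.40, limma adjusted p = 0.0184), a call lost without 20-m library 1 (0.0681) or 2 (0.0572). At 28 m Psme1 was at 943, 1213 and 980, which overlapped 2 m. With every library brought to 1 common sum, the limma calls of heavy chain, trimming, folding and activator genes were lost, except those of Fcgrt at both ages and of Uggt1 at 20 m. The ratio of Psme1 to Psme3, which encodes the cap that is not interferon-inducible, was 0.526 at 2 m, 0.344 at 20 m and 0.436 at 28 m (two-sided exact permutation p = 0.1 for 20 m against 2 m and for 28 m against 20 m).

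The genes outside these lists whose pattern over the 9 libraries was most like the mean pattern of the 10 genes included Iffo2, Hagh, Impdh1 and Gas6. Likeness was the root mean square difference of standardized log2 values among 10111 candidate genes with a mean of at least 100, and it was 0.322, 0.352, 0.357 and 0.378 in that order. Among the 10 genes themselves, H2-D1 was closest to their mean pattern at 0.251, and B2m (0.877) and Nlrc5 (0.806) were farthest. The mean pattern was lowest in the 3 libraries of 20 m (-0.41 to -1.17 standard deviations) and highest in the second 28-m library (1.46). That library also had the highest sums of the low T and NK cell markers (44.2) and of class II markers (4040). Its sums of macrophage (4345) and pan-leukocyte markers (1010) were not the highest.

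MBD-seq captures methylated DNA with a methyl-binding protein, so that more reads in a 500-bp bin mean more methylated fragments there. DNA of 3 mice was pooled before capture, and the labels list 2 muscle captures and 1 T-cell capture at each age. The table holds 1 column for each tissue and age and does not say which muscle capture a column is, so no spread was measured and no test was made. Intervals given are exact Poisson intervals at 95% and cover counting error only. Within 500 bp of the transcription start, 9 of the 10 genes had between 0.607 (Tap1) and 20.9 (Tapbp) normalized counts per bin in 2-m muscle, where the median over 20922 genes was 4.55. Nlrc5 was highest, at 35.2 (29.1 to 42.2), which put it at the 90.7 percentile of genes. Its signal in muscle was 28.4 (23.1 to 34.4) at 20 m and 23.6 (19.4 to 28.4) at 28 m, and in T cells it was 42.3, 49.5 and 69.6 at the same ages.

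The other starts differed with age in both directions. In muscle, Psmb9 went from 13.7 (9.95 to 18.3) at 2 m to 6.46 (4.09 to 9.69) at 20 m and 5.52 (3.61 to 8.09) at 28 m. Most of this signal lay in the bin 0.58 kb into the gene (39.1, 19.4 and 8.92 at the 3 ages). The bin that holds the start had 0, 0 and 4.46, and the bin before it 1.82, 0 and 3.19. Tap1 went from 0.607 (0.0734 to 2.19) at 2 m to 3.82 (2.27 to 6.04) at 28 m and H2-D1 from 3.94 (2.1 to 6.74) to 7.44 (5.18 to 10.3), while the median of all genes went from 4.55 to 8.07. B2m was low at all ages, at 1.52, 1.68 and 2.13. The median log2 difference of the 10 genes in muscle was -0.39 at 20 m (3 of 10 above 0, median of all genes -0.05) and 0.33 at 28 m (7 of 10 above 0, median of all genes 0.52). The sign at 28 m depended on the window: with 1000 bp either side it was -0.37 (5 of 10 above 0, median of all genes 0.26). In T cells, within 500 bp, the median was 0.06 at 20 m (5 of 10 above 0, median of all genes 0.17) and -0.26 at 28 m (3 of 10 above 0, median of all genes 0.18).

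Muscle and T cells, which were normalized in 1 table, differed at 2 m around the starts of the immunoproteasome and transporter cluster, and by age the gap varied. Within 1000 bp of the start at 2 m, Psmb8 had 20.9 (17.3 to 25.1) normalized counts per bin in muscle and 1.62 (0.701 to 3.2) in T cells. Psmb9, which shares bins with Tap1, had 19.1 (15.6 to 23.1) and 2.64 (1.41 to 4.51), Tap1 8.73 (6.44 to 11.6) and 1.02 (0.33 to 2.37), and Tap2 8.37 (6.13 to 11.2) and 0.812 (0.221 to 2.08). Over all genes the medians for this window were 8.19 in muscle and 9.54 in T cells. At 20 m, muscle and T cells had 13.3 (10.5 to 16.6) and 2.19 (1 to 4.16) for Psmb8, 16.2 and 3.89 for Psmb9, and 6.74 (4.81 to 9.17) and 2.43 (1.17 to 4.48) for Tap1. Tap2 then had 4.71 (3.13 to 6.81) in muscle and 3.65 (2.04 to 6.02) in T cells, intervals that overlap. At 28 m the values were 9.31 and 1.85 for Psmb8, 10.3 and 1.85 for Psmb9, 4.84 and 0 for Tap1, and 10.96 and 0 for Tap2, where the Poisson upper limit for 0 reads was 0.975. For Psmb8 most muscle reads of this window lay in flanking bins that were named after their values were seen. The bin 0.94 kb before the start had 30.9, 21.9 and 12.1 at 2 m, 20 m and 28 m in muscle against 4.06, 6.08 and 6.61 in T cells. The bin 1.06 kb after the start had 62.8, 39.6 and 19.8 against 2.03, 2.43 and 0. Outside the window, the bin 1.44 kb before the start, which lies in the Tap1 gene, had 71.9, 53.0 and 40.8 against 4.06, 6.08 and 7.93.

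The bodies of the chain genes also had more signal in muscle. Over the 10 bins of B2m, 2-m muscle had 28.2 normalized counts per bin and 2-m T cells 8.93, from 310 and 88 reads. Over the 7 bins of H2-K1 they were 6.11 and 0.29, from 47 and 2 reads, where the medians of all gene bodies were 23.2 and 24.8. At 20 m and 28 m B2m was at 22.8 and 16.4 in muscle and 2.8 and 8.06 in T cells, and H2-K1 at 4.21 and 8.56 in muscle and 0.348 and 0.378 in T cells. At the starts of H2-D1 and Tap1, T cells at 2 m had 0 reads, for which a floor of 3 reads in the window, a bound other than the Poisson interval, is 1.02 normalized counts per bin. Psmb10 was opposite within its body, at 1.14 in muscle and 13.2 in T cells at 2 m, 2.53 and 16.7 at 20 m and 6.21 and 19.5 at 28 m. Nlrc5 and Tapbp were high near the start in both, with 43.3 and 44.9 within 1000 bp at 2 m for Nlrc5 and 29.7 and 43.9 for Tapbp, and at 28 m muscle was lower than T cells for both, at 22.1 and 76.1 for Nlrc5 and 16.1 and 43.4 for Tapbp.

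**Figure D4:**
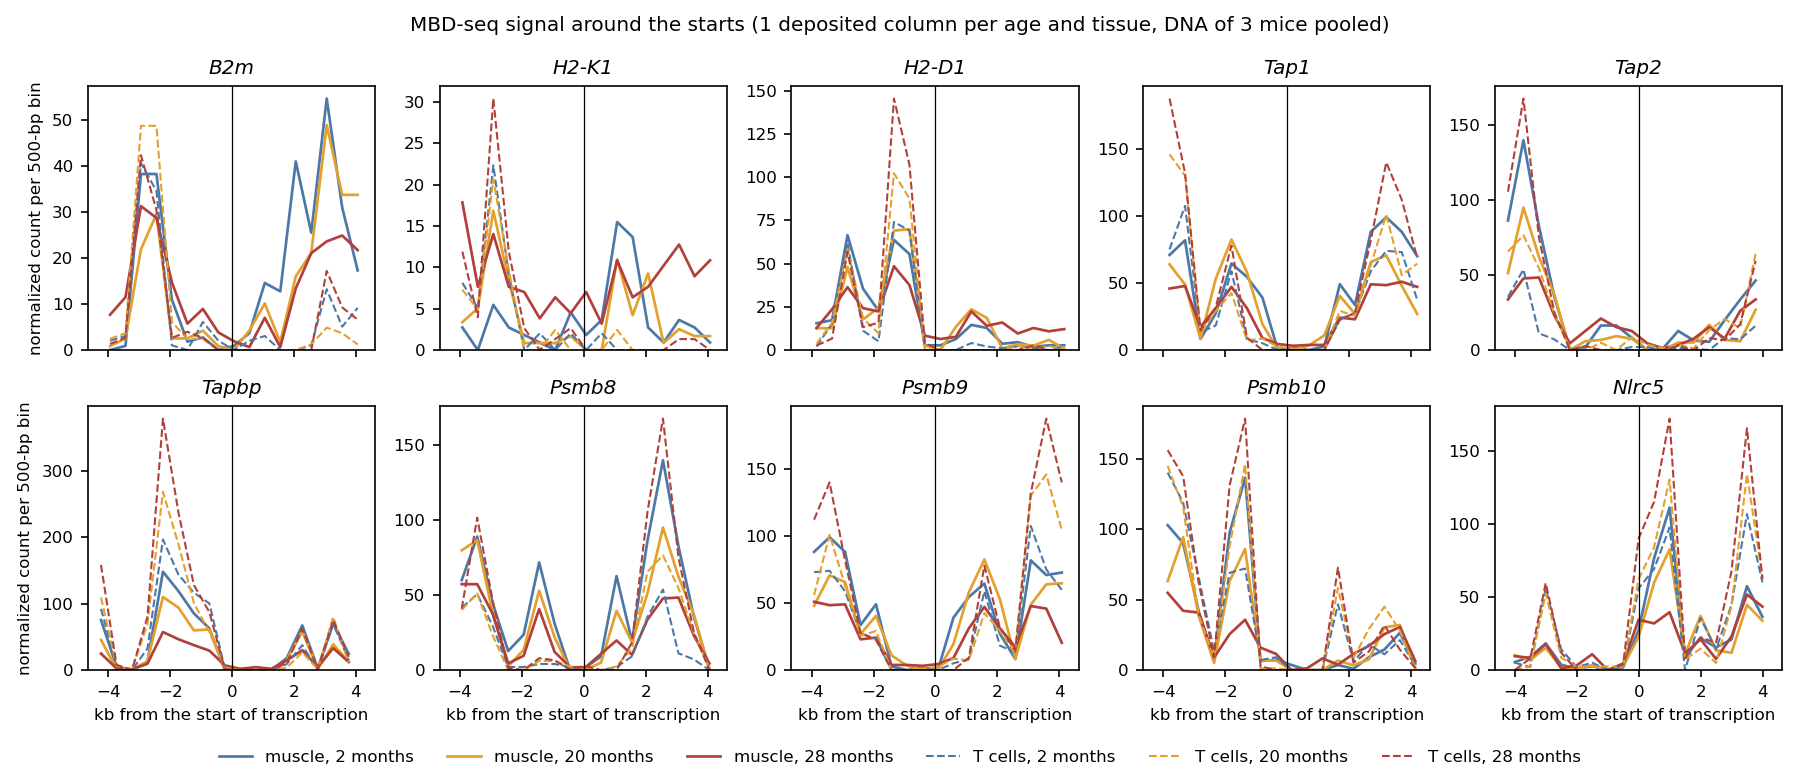
MBD-seq normalized counts in 500-bp bins around the transcription start of the 10 genes, by distance from the start in kb in the direction of transcription, with solid lines for muscle and broken lines for T cells at 2 m, 20 m and 28 m, each from 1 column of pooled DNA, and a vertical axis of its own for each panel. Muscle lines stand above T-cell lines beside the start of Psmb8, and lines of both tissues peak just after the start of Nlrc5.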

How the data were processed

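RNA-seq was done on 9 muscle libraries (3 mice at each of 3 ages). Per the methods of the study, reads were trimmed with Trim Galore, aligned with Hisat2 to mm10 (the processing notes name TopHat), counted per gene with htseq-count in its intersection-strict mode and normalized with DESeq2. Whether strand was used in counting is not given in the sources used here, so overlapping antisense transcripts cannot be told apart. The deposited RNA signal is counts that the authors divided by a size factor. Whole reads were recovered for 100% of values (tolerance 0.001), and 5 entries that name no gene (37.9% to 47.7% of totals) were left out. The deposited MBD-seq signal is reads in 500-bp bins, normalized by the authors with DESeq2 over muscle and T cells together, with bin counts that sum to 135254786 to 200456498 a column. A read that spans bins may be counted in each, so sums over bins can exceed the reads sequenced. Muscle was captured in 2 rounds (2 samples an age), and the table does not name the round of its muscle columns, so each was taken as a value of its age.

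The 13178 genes averaging 10 or more normalized counts were tested with limma 3.58.1 (limma-trend, log2 with a pseudocount of 1, age as the only term, all 9 libraries, Benjamini-Hochberg over all genes), in R 4.3.3. The procedure was tested on simulated data. edgeR 4.0.16 (quasi-likelihood) and DESeq2 1.42.0 on recovered reads were alternatives, with others in the closing section. Ratios used two-sided exact permutation tests (scipy 1.17.1) adjusted over 28 comparisons. RefSeq annotation and promoters of GRCm38.p6 gave positions, exon lengths and sequences. Depth sets the precision: 1 read is a large step for Nlrc5 and Psmb9.

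The 10 genes and the gene and marker lists were chosen with earlier results of these data known. Named genes are the 10, the pathway list genes called in any comparison, at most 4 called examples of other lists, and the 5 genes most like the 10. Some genes that the rule names are not reported here. Cd3e, Cd8a and Ifng lie outside this rule and were named after their values were seen. Replicate numbers name mice within an age and were not taken to pair them. List counts without 2-m library 1 and 2 motif forms were added after the data were seen. The labels give separate samples, which the methods describe as separate mice.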

Additional observations from a re-analysis of the deposited data

How the results depend on the processing

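The number of the 10 genes called is small and moved with the settings. At 20 m against 2 m it was 1, and became 0 with every library brought to 1 common sum (the same-sum rescaling), 2 with quantile normalization or with only the libraries of the groups compared (Tapbp being the added gene), 0 without the 3 libraries numbered 3, and 0 to 2 with single libraries left out. At 28 m against 2 m it was 2, and became 0 with the same-sum rescaling, 1 with no filter on low values, 1 with only the libraries compared, 1 without the libraries numbered 3, and 1 to 2 with single libraries left out. At 28 m against 20 m it was 0, and 2 with DESeq2. For 20 m and 28 m together it was 1, and 0 with no filter, the same-sum rescaling, quantile normalization, edgeR or without the libraries numbered 3, and 0 to 3 with single libraries left out. By the study's rule the count at 28 m against 2 m was 1 (0 to 1 with single libraries left out), and at 28 m against 20 m it was 0, and 1 with edgeR, DESeq2 or without the libraries numbered 3 (0 to 1 with single libraries left out). B2m at 28 m against 2 m lost its call with the same-sum rescaling alone (limma adjusted p = 0.325). Psmb8 lost its call with that rescaling (0.129) and without the libraries numbered 3 (0.0695). Nlrc5 lost its call with it (0.135), with no filter (0.0648), with only the libraries compared (0.0517) and without those numbered 3 (0.0691). The cause was not tested.

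A replicate block gave 3 called at 20 m (with H2-D1, adjusted p = 0.0462, and Tapbp, 0.0236) and 3 for 20 m and 28 m together, but the numbers were not taken to pair the mice, since deviations of same-numbered libraries correlated between -0.04 and 0.10 for numbers 1 and 2. For number 3 they correlated at 0.11, 0.15 and 0.16, and these 3 libraries also had a lower share of reads outside genes (37.9%, 41.5% and 38.9%) than the other 6 (44% to 47.7%), and whether they share a batch was not tested.

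Some small log2 differences changed sign. B2m at 20 m was 0.05, and -0.04 with quantile normalization (-0.01 to 0.10 with single libraries left out). Psmb10 at 28 m against 2 m was 0.02, and -0.01 without the libraries numbered 3 (-0.11 to 0.14 with single libraries left out). With single libraries left out, Tap1 at 28 m against 2 m was -0.04 to 0.55, Psmb9 -0.18 to 0.31, and Tapbp at 28 m against 20 m -0.02 to 0.18. Ratios ranged likewise: at 28 m against 2 m, Psmb8/Psmb5 -0.20 to 0.02, Psmb9/Psmb6 0.00 to 0.39 and Tap1/Tap2 -0.08 to 0.42. At 20 m against 2 m, Tap1/Tap2 was -0.23 to 0.02. For both older ages together, Psmb9/Psmb6 was -0.27 to 0.00, Psmb10/Psmb7 -0.11 to 0.03 and Tap1/Tap2 -0.09 to 0.16. At 28 m against 20 m, H2-K1/B2m was -0.11 to 0.20 and H2-D1/B2m -0.07 to 0.17. The median methylation difference of the 10 starts in muscle at 28 m was 0.33, and -0.37 with 1000 bp either side, and in T cells at 20 m it was 0.06, and -0.04 with the same-sum rescaling. Of 619 alternative values of the 10 genes, 575 kept both direction and call, and of 971 of the other named genes 808 did, 163 lost a call and 0 changed direction.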
